A study of Arabidopsis thaliana with 18 samples.

Results

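The 7 genes described here are nuclear genes of Arabidopsis thaliana whose products work in the chloroplast, in the light reactions and at the entry to carbon fixation. LHCB4.1 (AT5G01530) and LHCB4.2 (AT3G08940) encode isoforms of CP29, a minor antenna protein of photosystem II. PSBW (AT2G30570) and PSBY (AT1G67740) encode small membrane subunits of photosystem II. PSAE-1 (AT4G28750) encodes a stromal subunit of photosystem I and PSAN (AT5G64040) a lumenal one. RCA (AT2G39730) encodes Rubisco activase, which clears inhibitory sugar phosphates from Rubisco. They were chosen by gene name, with earlier results of these data known. Each was read by 1 probe set annotated to that gene alone. They make up 7 of the 13355 genes with such a probe set.

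Antenna proteins such as CP29 pass light energy to the reaction centres. Photosystem II takes electrons from water and photosystem I hands them to ferredoxin, and the resulting NADPH and ATP drive carbon fixation by Rubisco. These nuclear-encoded proteins are made in the cytosol and imported into the chloroplast. Signals on the state of chloroplasts and mitochondria pass back to the nucleus, which is called retrograde signalling. Transcripts of nuclear photosynthesis genes are a classic readout of chloroplast retrograde signals.

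Expression was measured on 18 Affymetrix ATH1 arrays in 6 groups of 3. The groups were rao1-1 mutant seedlings treated with antimycin A, rao1-1 mock, rao1-2 mutant seedlings treated with antimycin A, rao1-2 mock, and wild-type Col-Luc seedlings treated with antimycin A and mock. The rao1 mutants, named as regulators of alternative oxidase 1a, came from forward genetic screens, and the series is titled after the kinase CDKE;1, whose transcript was not analysed here. The sources used here do not say what the 2 alleles change. All seedlings were 14 days old and were grown with 3% sucrose in the medium. They were sprayed with 50 µM antimycin A, an inhibitor of mitochondrial electron transport that elicits mitochondrial retrograde signalling, or with deionised water as the mock. Whole green tissue was taken 3 h later. Replicates are numbered, but nothing says that they were grown or treated separately. The p-values therefore cover the spread among these samples alone, and that spread may be technical. In tissue of this kind, fewer cells of a type and less RNA per cell cannot be told apart.

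Values are the authors' normalized intensities on a linear scale, and changes are differences of mean log2 intensities with their SE. The number of arrays limits the precision. Array medians lay between 78.0 and 92.1, and the mean correlation of an array with the others of its group, across probe sets, between 0.985 and 0.995. The 7 genes ranged from 8082 to 30708 and stood above the background limit (an intensity of 19.8) on all 18 arrays. Of 13 root marker genes 3 were named here. The transcript of PYK10, a root and hypocotyl beta-glucosidase, stood above the limit on every array, and those of the root hair expansins EXPA7 and EXPA18 stood under it on every array. Summed over the 3 markers, the intensity spanned 629 to 1139 in rao1-1 antimycin A and 761 to 1474 in rao1-1 mock arrays, 323 to 1115 in rao1-2 antimycin A and 62.1 to 797 in rao1-2 mock arrays, and 695 to 1286 in Col-Luc antimycin A and 669 to 1001 in Col-Luc mock arrays. None of the 3 was called in any comparison, and their part in the results was not tested. Of 5 genes chosen as a check of mitochondrial stress, 4 rose under antimycin A in rao1-1, 4 in rao1-2 and 5 in Col-Luc.

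The first question was whether antimycin A, used here as an inhibitor of mitochondrial electron transport, changed these chloroplast-directed transcripts within 3 h. Whether any change came by way of the mitochondria was not tested. In Col-Luc 4 of the 7 fell and 0 rose, namely PSBY, LHCB4.2, LHCB4.1 and RCA, by 1.1-fold to 1.66-fold. In rao1-1 only PSBY passed the test, and in rao1-2 PSBY and LHCB4.2 did, all of them lower. A gene was called at an adjusted p under 0.05 in limma's fit, with Benjamini-Hochberg adjustment over 22746 probe sets. Calls were common on these arrays. Of all probe sets, 24.8% were called lower and 15.8% higher in rao1-1, 27.3% lower and 15.6% higher in rao1-2, and 28.8% lower and 14.4% higher in Col-Luc. The 7 genes are bright, and a filter on dim probe sets left 14849. Of these, 5751 were called lower in rao1-1, 6255 in rao1-2 and 6528 in Col-Luc. With that filter 1, 2 and 3 of the 7 were called, all lower. Counts of 1, 2 and 4 among 7 genes are to be read against those shares and counts.

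PSBY was the gene that changed most in Col-Luc and in rao1-1 among the 7. In Col-Luc its intensity was 10688, 8604 and 9059 on the 3 antimycin A arrays, against 16089, 16907 and 13901 on the 3 mock arrays. Every antimycin A array lay well below every mock array, and the change was -0.73 ± 0.12 on the log2 scale, 1.66-fold lower (limma, adjusted p = 0.000175). In rao1-1 it was 8269, 8082 and 10838 on the 3 antimycin A arrays, against 12830.3, 11653 and 11825 on the 3 mock arrays. The groups did not overlap there either, although 1 antimycin A array stood above the other 2, and PSBY fell 1.35-fold (-0.43 ± 0.12, limma, adjusted p = 0.00849). In rao1-2 the intensity was 9171, 9073 and 8640.1 on the 3 antimycin A arrays, against 13444, 12032 and 11478 on the 3 mock arrays. Here the 3 antimycin A arrays sat close together and below all mock arrays, with a fall of 1.37-fold (-0.46 ± 0.12, limma, adjusted p = 0.00527).

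PSBW encodes the other small subunit of photosystem II in this group and did not pass the test in any genotype. In rao1-1 it was 14015, 15935 and 15120.0 on the 3 antimycin A arrays, against 14483, 13058 and 13632 on the 3 mock arrays, with overlapping groups. The change of 0.13 ± 0.07 had a 95% interval of -0.01 to 0.27 (limma, adjusted p = 0.128). In rao1-2 it was 13879.7, 14871 and 13993 on the 3 antimycin A arrays, against 14644, 13728 and 12924 on the 3 mock arrays, again overlapping, with a change of 0.05 ± 0.07 (limma, adjusted p = 0.538). In Col-Luc the arrays read 13142, 13245 and 13552 on the 3 antimycin A arrays, against 14342, 15179 and 13678 on the 3 mock arrays. Those ranges did not overlap, yet the change was small, at -0.11 ± 0.07 (interval -0.25 to 0.03, limma, adjusted p = 0.205).

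PSBY and PSBW can also be compared within each array, where a common factor cancels. This pair was chosen after the values were seen, so it is given as a description. The log2 ratio of PSBY to PSBW ran between -0.98 and -0.48 under antimycin A and between -0.21 and -0.16 under mock in rao1-1. In rao1-2 it ran between -0.71 and -0.60 under antimycin A and between -0.19 and -0.12 under mock. In Col-Luc it ran between -0.62 and -0.30 under antimycin A and between 0.02 and 0.17 under mock. The ranges were apart in every genotype, and the means, antimycin A minus mock, differed by -0.56 in rao1-1, -0.51 in rao1-2 and -0.62 in Col-Luc. Other ratios were formed too. The ranges of LHCB4.2 to PSBW were also apart in every genotype. Those of LHCB4.2 to LHCB4.1 were apart only in rao1-2, and those of PSAE-1 to PSAN only in rao1-1. A ratio of this kind cancels a factor shared by a whole array, and not a scaling that depends on intensity.

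**Figure D1:**
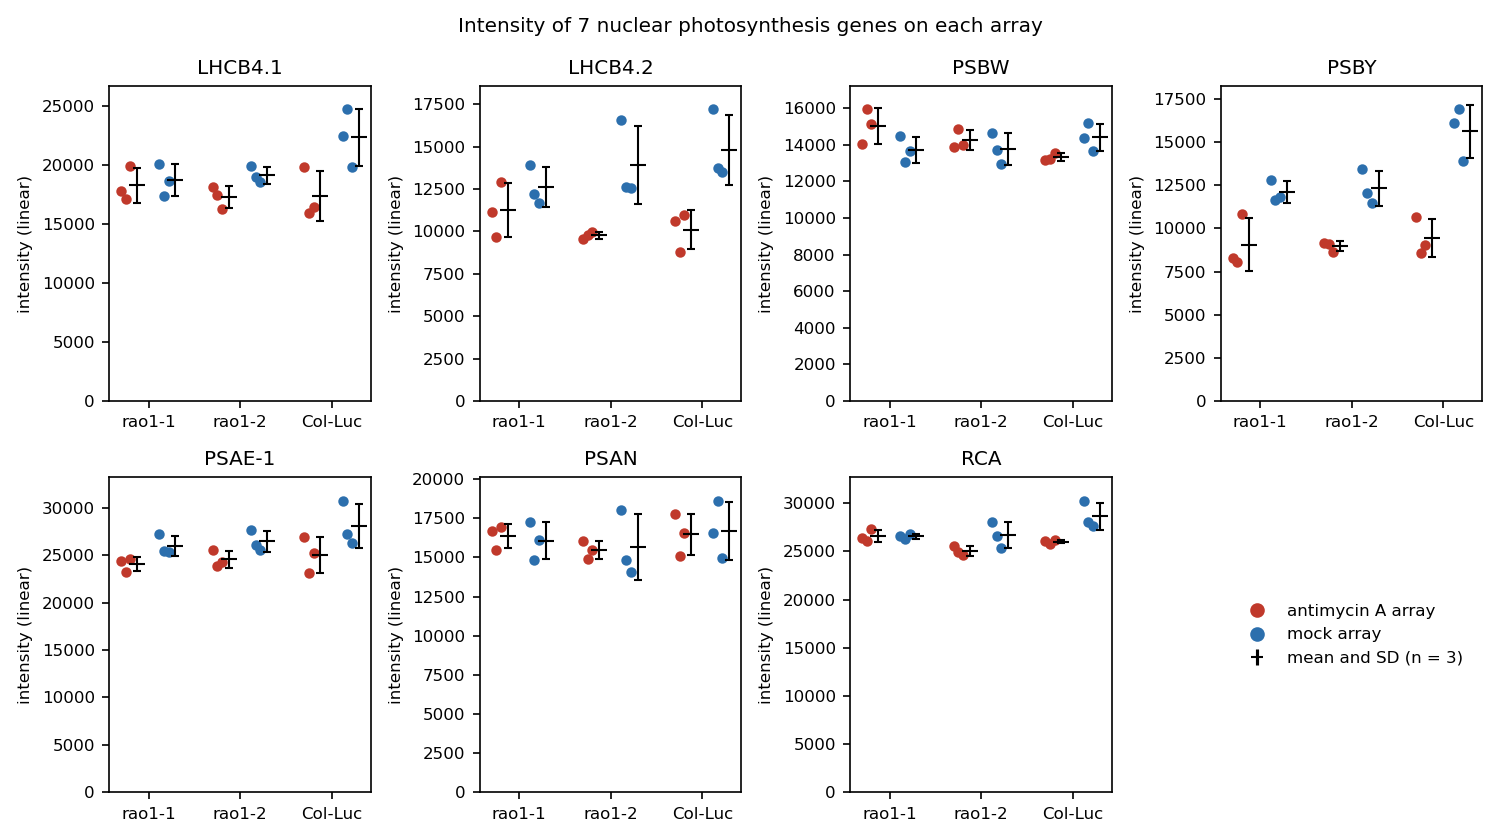
Intensity (linear scale, axes starting at 0) of each of the 7 genes on every array, by genotype, with antimycin A arrays in red left of mock arrays in blue and the mean with its SD beside each set of 3. PSBY shows red points below blue points in all 3 genotypes, with 8604 to 10688 under antimycin A against 13901 to 16907 under mock in Col-Luc, while the points of PSAN mix.

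Both CP29 genes fell in Col-Luc. LHCB4.2 had 10603, 8793 and 10939.5 on the 3 antimycin A arrays, against 17203, 13746 and 13499.9 on the 3 mock arrays. The groups were apart, and LHCB4.2 fell 1.46-fold (-0.55 ± 0.14, limma, adjusted p = 0.0047). LHCB4.1 had 19831, 15903 and 16433 on the 3 antimycin A arrays, against 22464, 24716 and 19832 on the 3 mock arrays. Its groups only just missed each other, since antimycin A replicate 1 and mock replicate 3 read almost the same, and it fell 1.29-fold (-0.36 ± 0.10, limma, adjusted p = 0.00822).

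Of LHCB4.1 and LHCB4.2, only LHCB4.2 in rao1-2 was called in a mutant, and the change of one gene against the other was not tested. In rao1-2 LHCB4.2 read 9559, 9781 and 9978 on the 3 antimycin A arrays, against 16565, 12643 and 12556 on the 3 mock arrays, so that the groups were apart, and it fell 1.41-fold (-0.50 ± 0.14, limma, adjusted p = 0.00867). The mock value of replicate 1 was the highest of that group, and without that array the change was -0.37 (limma, adjusted p = 0.0461). LHCB4.1 in rao1-2 read 18105, 17426 and 16306 on the 3 antimycin A arrays, against 19944, 18939.7 and 18549 on the 3 mock arrays. All 3 antimycin A arrays were lower, but the change of -0.15 ± 0.10 did not pass (limma, adjusted p = 0.257). In rao1-1 LHCB4.2 read 11149.5, 9691 and 12887 on the 3 antimycin A arrays, against 13931, 12213 and 11685 on the 3 mock arrays, with overlap and a change of -0.17 ± 0.14 (limma, adjusted p = 0.317). LHCB4.1 in rao1-1 read 17755, 17107 and 19928 on the 3 antimycin A arrays, against 20087, 17369.6 and 18664 on the 3 mock arrays. These groups overlapped over most of their range, with a change of -0.04 ± 0.10 and an interval of -0.25 to 0.18.

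The photosystem I genes did not pass the test in any genotype. PSAE-1, whose product helps ferredoxin dock on the stromal side, read 26872, 23099 and 25169.5 on the 3 antimycin A arrays, against 30708, 27219.7 and 26257 on the 3 mock arrays in Col-Luc. The groups overlapped through antimycin A replicate 1, and the change was -0.16 ± 0.07 (interval -0.31 to -0.01, limma, adjusted p = 0.0761). In rao1-1 PSAE-1 read 24322, 23231 and 24598 on the 3 antimycin A arrays, against 27215, 25383 and 25353 on the 3 mock arrays, and in rao1-2 25555, 23820.2 and 24274 on the 3 antimycin A arrays, against 27686, 26028 and 25581 on the 3 mock arrays. In both mutants all antimycin A arrays were lower than all mock arrays, with a change of -0.11 ± 0.07 in each that did not pass (limma, adjusted p = 0.209 in rao1-1 and 0.25 in rao1-2). PSAN, whose product lies in the thylakoid lumen near the plastocyanin docking site, had changes of 0.03 ± 0.10 in rao1-1, -0.01 ± 0.10 in rao1-2 and -0.02 ± 0.10 in Col-Luc. Its 18 values lay between 14081 and 18614, and its groups overlapped in every genotype. The intervals of PSAN reached from -0.24 to 0.20 in Col-Luc, so that changes smaller than this could not be seen with 3 arrays a group.

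RCA had the smallest SE of the 7 genes. In Col-Luc it read 26089, 25791 and 26183 on the 3 antimycin A arrays, against 30240.1, 28079 and 27586 on the 3 mock arrays. The antimycin A arrays were nearly equal and below all mock arrays, and RCA fell 1.1-fold (-0.14 ± 0.05, interval -0.24 to -0.03, limma, adjusted p = 0.0357). That call was lost when any 1 of 5 of the 6 Col-Luc arrays was left out, all but mock replicate 3, with adjusted p-values (limma) up to 0.168. In rao1-1 RCA read 26379.9, 26058 and 27329.9 on the 3 antimycin A arrays, against 26568, 26294 and 26819 on the 3 mock arrays, which overlapped with a change of 0.00 ± 0.05 (interval -0.10 to 0.11, limma, adjusted p = 0.984). In rao1-2 it read 25542, 24934 and 24572 on the 3 antimycin A arrays, against 28044, 26606 and 25372 on the 3 mock arrays. Mock replicate 3 fell within the antimycin A range, and the change was -0.09 ± 0.05 (limma, adjusted p = 0.159).

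**Figure D2:**
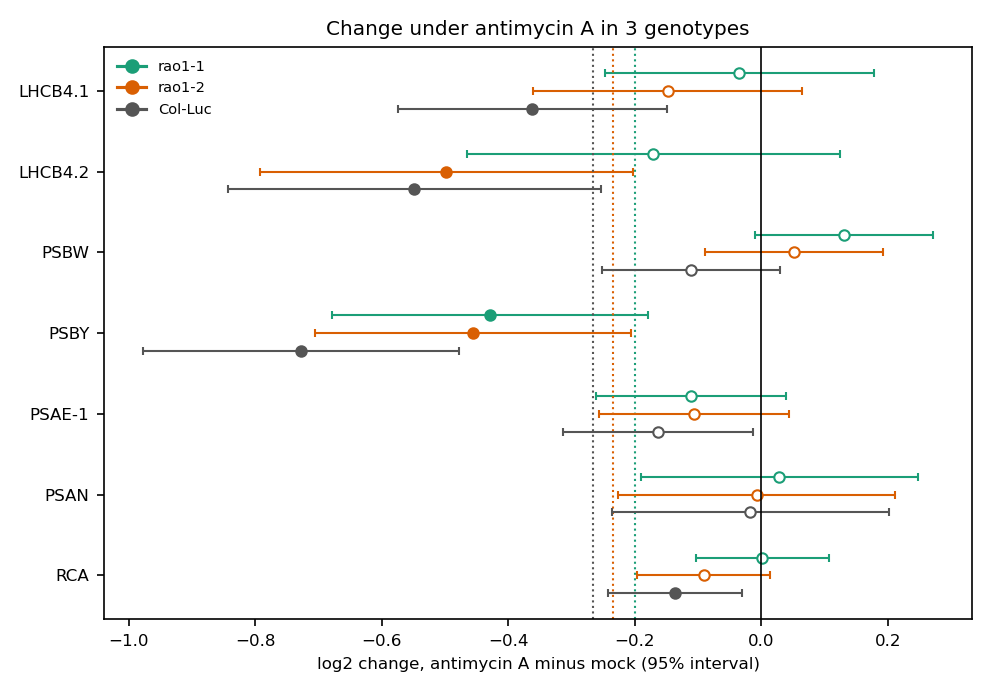
Change of each gene under antimycin A (log2, antimycin A minus mock, on the x axis) in rao1-1, rao1-2 and Col-Luc, with 95% intervals from limma. Filled points passed at an adjusted p under 0.05, and the dotted lines mark the median change of the probe sets above the background limit in each genotype, from -0.27 in Col-Luc to -0.20 in rao1-1. PSBY and LHCB4.2 in Col-Luc lie left of those lines, at -0.73 and -0.55.

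The median change of the 7 genes was -0.04 in rao1-1, -0.11 in rao1-2 and -0.16 in Col-Luc. Over all 22746 probe sets the median was 0.04, 0.03 and -0.002 in the same order of genotypes. Over the 14155 probe sets with a mean above the background limit, the median was -0.20 in rao1-1, -0.23 in rao1-2 and -0.27 in Col-Luc, lower than the median of the 7 genes in each genotype. Of those probe sets, 61.6% in rao1-1, 62.0% in rao1-2 and 64.9% in Col-Luc lay below 0, beside 4, 6 and 7 of the 7 genes. The 7 genes, at 8082 to 30708, stood far above the array medians of 78.0 to 92.1. Whether brightness bears on the size of a change was not tested.

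How the arrays were scaled set how many of the 7 passed. Added controls moved between groups: the mean log2 intensity of the 22 poly(A) control probe sets used, spiked in before labelling, was higher under antimycin A than under mock by 0.22 in rao1-1, 0.31 in rao1-2 and 0.25 in Col-Luc. That of the 12 hybridisation control probe sets was higher by 0.26 in rao1-1, 0.21 in rao1-2 and 0.01 in Col-Luc, and the 25S ribosomal RNA probe set by 1.24, 1.05 and 0.84 in the same order. When each array was instead set relative to its poly(A) controls, 3 of the 7 were called in rao1-1, 7 in rao1-2 and 7 in Col-Luc, all lower. Of all 22746 probe sets, 7498, 10477 and 9283 were then called lower in the same order. Set relative to its hybridisation controls, 5 passed in rao1-1, 5 in rao1-2 and 3 in Col-Luc, all lower. Over all probe sets 11130, 9789 and 6407 were called lower on that scaling. PSBY was called lower in all 3 genotypes, and LHCB4.2 in rao1-2 and Col-Luc, under each of the 4 other scalings. The 3′ minus 5′ log2 intensity of control transcripts, a measure of RNA quality, moved as well. For GAPDH it was lower under antimycin A than under mock, with differences of -0.43 in rao1-1, -0.21 in rao1-2 and -0.57 in Col-Luc. For actin it averaged 6.23 ± 0.06 under antimycin A and 6.76 ± 0.02 under mock in rao1-1 (SD, n = 3 each), with differences of -0.07 in rao1-2 and 0.00 in Col-Luc. Group means of this measure lay between 2.64 and 3.21 for GAPDH and between 6.23 and 6.76 for actin. The 3′ signal was thus well above the 5′ signal in every group. The part of these control and RNA quality shifts in the results was not tested.

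**Figure D3:**
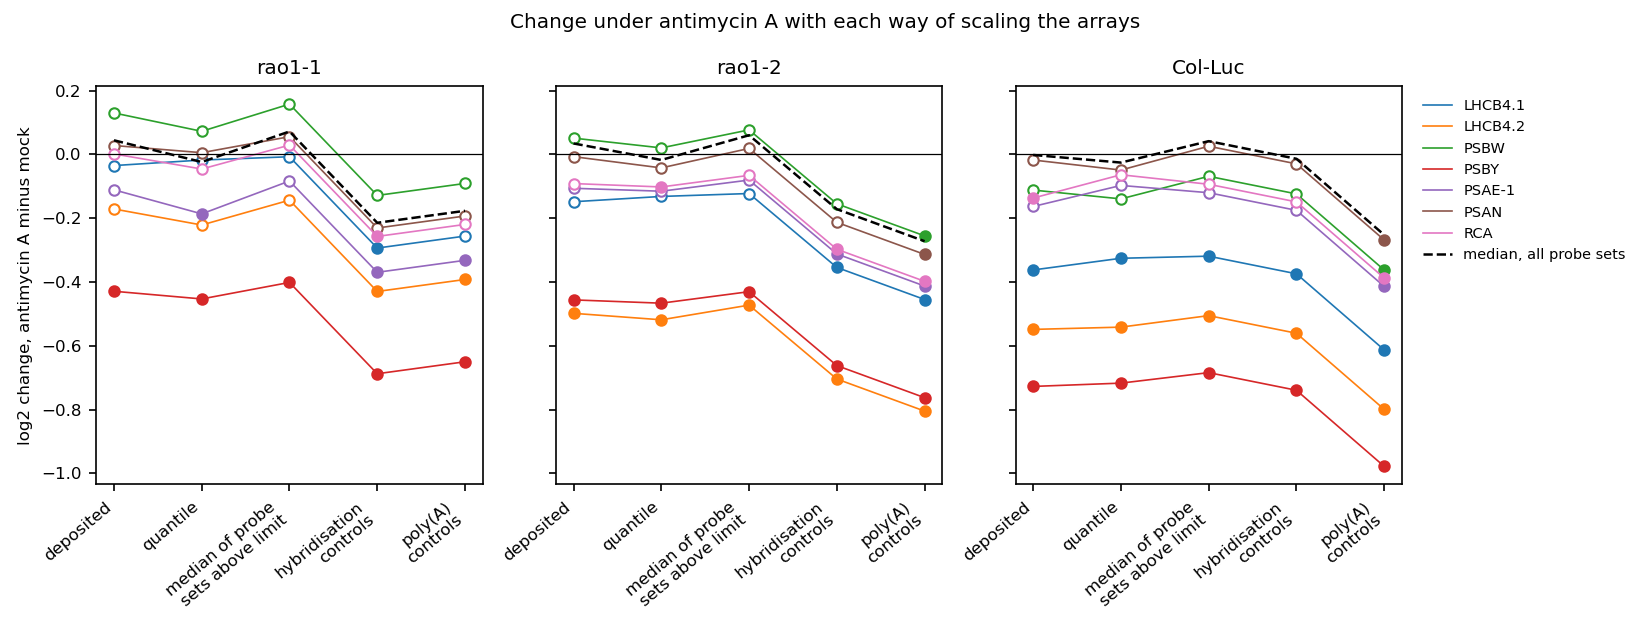
Change of each gene under antimycin A (log2, y axis) in the 3 genotypes with the arrays as deposited and under 4 other scalings (x axis), with the median of all probe sets as a dashed line. Filled points passed at an adjusted p under 0.05, and PSBY in Col-Luc moves from -0.73 as deposited to -0.98 on the poly(A) controls, alongside the dashed line.

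The second question was whether the mutants differed from Col-Luc in these transcripts. Under antimycin A 0 of the 7 were called in rao1-1, where 3.27% of all probe sets were, and 0 in rao1-2, where 2.46% were (limma). At an unadjusted p under 0.05 the counts were 1 and 0, beside 4077 and 3276 of all 22746 probe sets. PSBW was the gene in rao1-1: its rao1-1 antimycin A arrays all lay above its Col-Luc antimycin A arrays, by 0.17 ± 0.07 (limma, adjusted p = 0.184). PSBY, so much lower under antimycin A in every genotype, differed there by only -0.07 ± 0.12 in each mutant, with intervals from -0.32 to 0.18.

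Under mock 0 of the 7 were called in rao1-1 (4.04% of all probe sets) and 0 in rao1-2 (1.37%). At an unadjusted p under 0.05 the counts were 3 and 2, beside 3800 and 3060 of all 22746 probe sets. All 7 estimates were below 0 in both mutants, which share the Col-Luc mock arrays, with medians of -0.11 in rao1-1 and -0.10 in rao1-2. Of the probe sets above the limit 56.3% in rao1-1 and 52.7% in rao1-2 were below 0 as well. PSBY had the lowest estimates. Its mock arrays of rao1-1 and rao1-2 spanned 11478 to 13444, below the Col-Luc mock arrays at 13901 to 16907. The differences were -0.37 ± 0.12 in rao1-1 (limma, adjusted p = 0.103) and -0.34 ± 0.12 in rao1-2 (limma, adjusted p = 0.184). LHCB4.1 had -0.25 ± 0.10 in rao1-1 (limma, adjusted p = 0.199) and -0.22 ± 0.10 in rao1-2 (limma, adjusted p = 0.356), and RCA had -0.11 ± 0.05 in rao1-1 and -0.10 ± 0.05 in rao1-2. The hybridisation controls were lower than in Col-Luc mock by 0.18 in log2 in rao1-1 mock and by 0.12 in rao1-2 mock, and with the arrays centred on them the medians became 0.07 and 0.02.

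Only LHCB4.1 and LHCB4.2 had the same order of all 6 groups. In these genes, PSBY and PSAE-1 the mock groups stood on top, as Col-Luc, rao1-2 and rao1-1. Col-Luc mock had the highest mean for every gene but PSBW, whose highest mean was that of rao1-1 antimycin A. For PSBY the order from the top was Col-Luc mock at 15632 ± 1554, rao1-2 mock at 12318 ± 1014, rao1-1 mock at 12103 ± 636, Col-Luc antimycin A at 9450.1 ± 1095.5, rao1-1 antimycin A at 9063 ± 1540 and rao1-2 antimycin A at 8961 ± 283 (SD, n = 3 each). Its Col-Luc mock arrays did not overlap with those of the next group, and neither did the rao1-1 mock arrays with those of Col-Luc antimycin A, while the other neighbours overlapped. For LHCB4.1, LHCB4.2, PSBW, PSAE-1 and PSAN every pair of neighbours in the order overlapped. RCA had 2 gaps, between rao1-1 mock and Col-Luc antimycin A and between Col-Luc antimycin A and rao1-2 antimycin A, at means of 26560.3, 26021 and 25016.

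**Figure D4:**
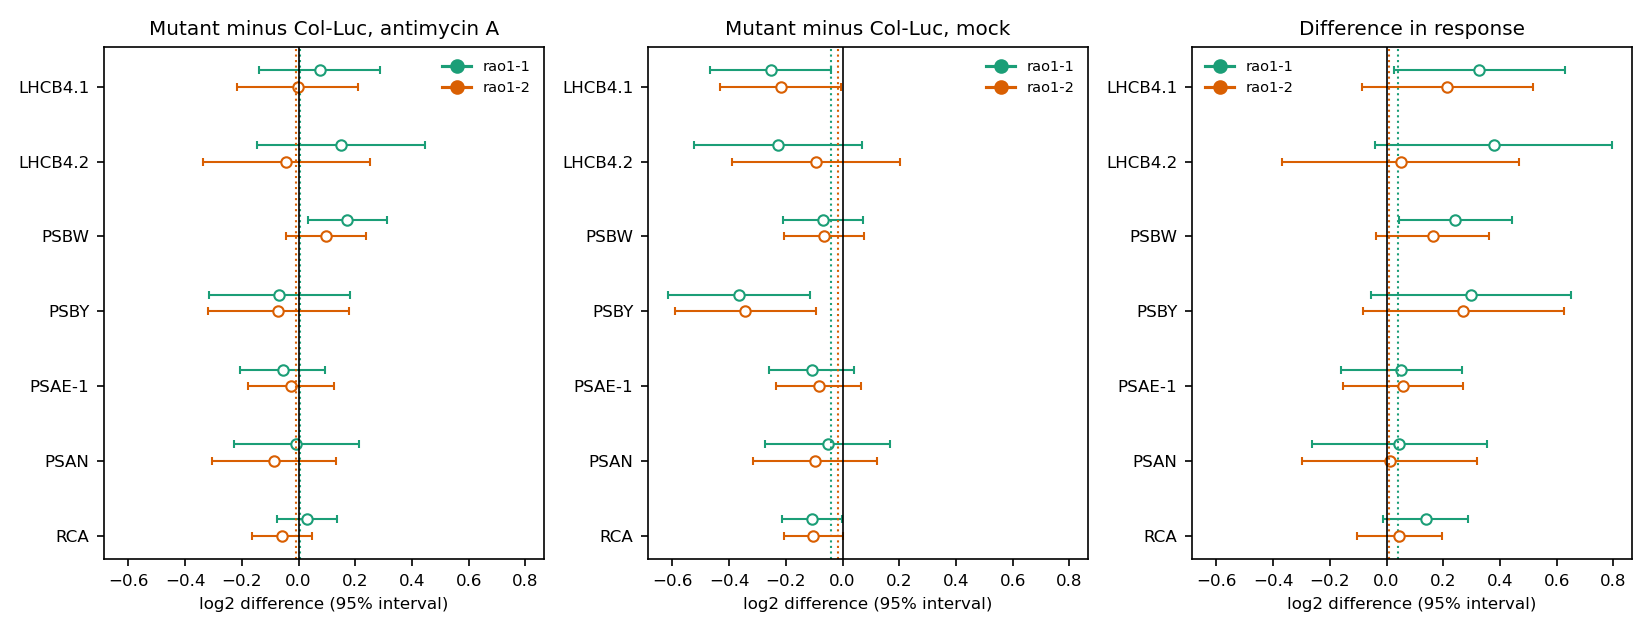
Each gene's log2 difference between mutant and Col-Luc under antimycin A (left) and mock (middle), and the difference between mutant and Col-Luc in the response to antimycin A (right), with 95% intervals from limma for rao1-1 and rao1-2. All points are open because 0 passed at an adjusted p under 0.05, and the dotted lines give the median of the probe sets above the background limit. The lowest points are those of PSBY under mock, at -0.37 and -0.34.

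Differences between genotypes in the antimycin A response were tested directly, as an interaction. No member was called: 0 of 7 for rao1-1 minus Col-Luc, against 0.369% of all probe sets, 0 for rao1-2 minus Col-Luc, against 0.198%, and 0 for the mean of both mutants minus Col-Luc, against 0.396% (limma). At an unadjusted p under 0.05 the counts were 2, 0 and 2, beside 2458, 2226 and 2677 of all 22746 probe sets. A positive difference means a smaller fall or a larger rise in the mutant, and a transcript already lower under mock gives one at an equal level under antimycin A. All 7 estimates were above 0 in each comparison, which share the Col-Luc arrays. Of the probe sets above the limit 55.3% were above 0 for rao1-1, 51.1% for rao1-2 and 53.0% for both. The 7 genes are correlated across arrays, so their signs are not separate results. For rao1-1 they were 0.33 ± 0.14 for LHCB4.1 (interval 0.03 to 0.63), 0.38 ± 0.19 for LHCB4.2 (-0.04 to 0.79), 0.24 ± 0.09 for PSBW (0.04 to 0.44) and 0.30 ± 0.16 for PSBY (-0.05 to 0.65), with adjusted p-values (limma) of 0.337 to 0.557. The PSBW interval left out 0 before adjustment, as did that of LHCB4.1. For rao1-2 the estimates reached from 0.01 ± 0.14 for PSAN to 0.27 ± 0.16 for PSBY, and every interval held 0. For the mean of both mutants LHCB4.1 had 0.27 ± 0.12 (limma, adjusted p = 0.404), PSBW 0.20 ± 0.08 (limma, adjusted p = 0.334) and PSBY 0.28 ± 0.14 (limma, adjusted p = 0.472). LHCB4.1, LHCB4.2 and RCA were thus called in Col-Luc and not in rao1-1, while the difference between the 2 responses passed for none of the 3. The hybridisation controls moved with this contrast, by 0.25 in rao1-1, 0.19 in rao1-2 and 0.22 for both, and centred on them the medians of the 7 were -0.005, -0.14 and -0.02, against 0.24, 0.06 and 0.20 as deposited. The part of these controls in the differences was not tested.

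Other genes, of the photosynthetic apparatus and of pathways linked to it, were taken from lists chosen with earlier results of these data known. The lists covered the antenna, both photosystems, electron carriers and ATP synthase, the Calvin cycle, chlorophyll synthesis and photorespiration. Most listed genes had no named probe set here, and 18 besides the 7 could be read. Of these 18, 10 fell and 1 rose in rao1-1 (median -0.38), 10 fell and 0 rose in rao1-2 (median -0.52), and 15 fell and 0 rose in Col-Luc (median -0.77). Set relative to the poly(A) controls, 11 fell in rao1-1, 16 in rao1-2 and 18 in Col-Luc, and relative to the hybridisation controls 11, 14 and 16, with 0 higher in each. The counts of all probe sets called lower under both scalings are given above. For the difference in response, 1 of the 18 was called for rao1-1 minus Col-Luc (AT1G56190, taken up below). For rao1-2 minus Col-Luc and for the mean of both mutants 0 were called (limma). At an unadjusted p under 0.05 the counts were 7, 1 and 7, beside 2458, 2226 and 2677 of all 22746 probe sets. For the rest of the 18, a call in Col-Luc and not in a mutant is thus no difference between genotypes that passed. Lists of plastid-encoded genes and of thylakoid assembly held 0 genes named here.

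The antenna and photosystem II lists held 1 further gene each. LHCB4.3, the third CP29 gene of Arabidopsis, fell in all 3 genotypes, with changes of -0.98 ± 0.28 in rao1-1, -1.14 ± 0.28 in rao1-2 and -0.97 ± 0.28 in Col-Luc (limma, adjusted p = 0.0124, 0.00434 and 0.0114). The rao1-1 call was lost without antimycin A replicate 1, and the Col-Luc call without antimycin A replicate 2. With only the groups compared the Col-Luc call was lost too (limma, adjusted p = 0.0724). PSB27, which encodes a lumenal protein of photosystem II assembly and repair, fell in Col-Luc (-0.55 ± 0.15, limma, adjusted p = 0.00901), with -0.14 ± 0.15 in rao1-1 and -0.37 ± 0.15 in rao1-2. On either kind of control PSB27 was called lower in both mutants, and with quantile normalization in rao1-2.

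Chlorophyll synthesis was the list with the most genes named here, 7, and 5 fell in rao1-1, 5 in rao1-2 and 7 in Col-Luc. CHLI2, a subunit of magnesium chelatase, changed by -1.50 ± 0.30 in rao1-1, -1.54 ± 0.30 in rao1-2 and -1.76 ± 0.30 in Col-Luc. PORB, which reduces protochlorophyllide in the light, changed by -1.37 ± 0.22, -1.29 ± 0.22 and -1.68 ± 0.22 in the same order, and HEME2, a uroporphyrinogen decarboxylase, by -1.60 ± 0.17, -1.63 ± 0.17 and -1.52 ± 0.17. These 3 genes passed in all 3 genotypes (limma, adjusted p up to 0.00121). GSA1, the glutamate semialdehyde aminomutase at the start of the pathway, also fell in rao1-1 (-0.55 ± 0.10), rao1-2 (-0.63 ± 0.10) and Col-Luc (-0.62 ± 0.10). CHLM, the magnesium protoporphyrin methyltransferase, fell in Col-Luc (-0.72 ± 0.18, limma, adjusted p = 0.00445), with 0.04 ± 0.18 in rao1-1 and -0.18 ± 0.18 in rao1-2. On poly(A) controls CHLM was called lower in rao1-2 as well (-0.49, limma, adjusted p = 0.0184).

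In the Calvin cycle list, 2 of 4 genes fell in rao1-1, 2 in rao1-2 and 4 in Col-Luc, RCA among them in Col-Luc. PRK, the phosphoribulokinase that makes the substrate of Rubisco, fell in all 3 genotypes, with changes of -1.0 ± 0.30 in rao1-1, -1.11 ± 0.30 in rao1-2 and -1.65 ± 0.30 in Col-Luc (limma, adjusted p = 0.0155, 0.00779 and 0.000501). Its call in rao1-1 was lost without antimycin A replicate 2 or mock replicate 1. SBPASE, sedoheptulose bisphosphatase, fell in Col-Luc (-0.85 ± 0.20, limma, adjusted p = 0.00265). It was called lower in rao1-2 only on poly(A) controls (-0.72, limma, adjusted p = 0.00195) and on hybridisation controls (-0.62, limma, adjusted p = 0.0161). AT1G56190 fell in all 3 genotypes, with changes of -0.32 ± 0.07 in rao1-1, -0.84 ± 0.07 in rao1-2 and -0.81 ± 0.07 in Col-Luc. Among carriers, ATPC1, the gamma subunit of the chloroplast ATP synthase, fell in all 3, with changes of -1.03 ± 0.26 in rao1-1, -1.08 ± 0.26 in rao1-2 and -1.23 ± 0.26 in Col-Luc. PGRL1B, of cyclic electron flow, fell in Col-Luc (-0.27 ± 0.08, limma, adjusted p = 0.0148), a call lost without antimycin A replicate 2. In rao1-2 PGRL1B was called lower on poly(A) controls (-0.38) and on hybridisation controls (-0.28). In rao1-1 it was called higher centred on the median of probe sets above the limit (0.22) and with a replicate block (0.20).

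The photorespiration list held 3 genes named here. AT1G11860 fell in all 3 genotypes, with changes of -0.67 ± 0.21 in rao1-1, -1.06 ± 0.21 in rao1-2 and -1.29 ± 0.21 in Col-Luc, and the rao1-1 call was lost without antimycin A replicate 1, antimycin A replicate 2 or mock replicate 1. HPR, hydroxypyruvate reductase, rose in rao1-1 (0.55 ± 0.20, limma, adjusted p = 0.0421), a call lost on leaving out any of 5 of its 6 arrays, all but mock replicate 1, and on either control scaling. HPR had 0.34 ± 0.20 in rao1-2 and -0.27 ± 0.20 in Col-Luc. Outside the 18 genes, HYH, a bZIP relative of the light-signalling factor HY5, rose in all 3 genotypes, by 1.52 ± 0.25 in rao1-1, 1.28 ± 0.25 in rao1-2 and 1.66 ± 0.25 in Col-Luc. WRKY53, a senescence-associated transcription factor, rose by 0.83 ± 0.27, 0.86 ± 0.27 and 1.34 ± 0.27 in the same order. The WRKY53 calls in both mutants were lost on either control scaling. In rao1-1 the call was also lost without any 1 of 4 arrays, all but antimycin A replicate 1 and mock replicate 2, and in rao1-2 without antimycin A replicate 3 or mock replicate 1. SAG29, a senescence-associated gene called higher in rao1-1, stood above the background limit on 1 rao1-1 antimycin A array and on no other array, so no fold is given.

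**Figure D5:**
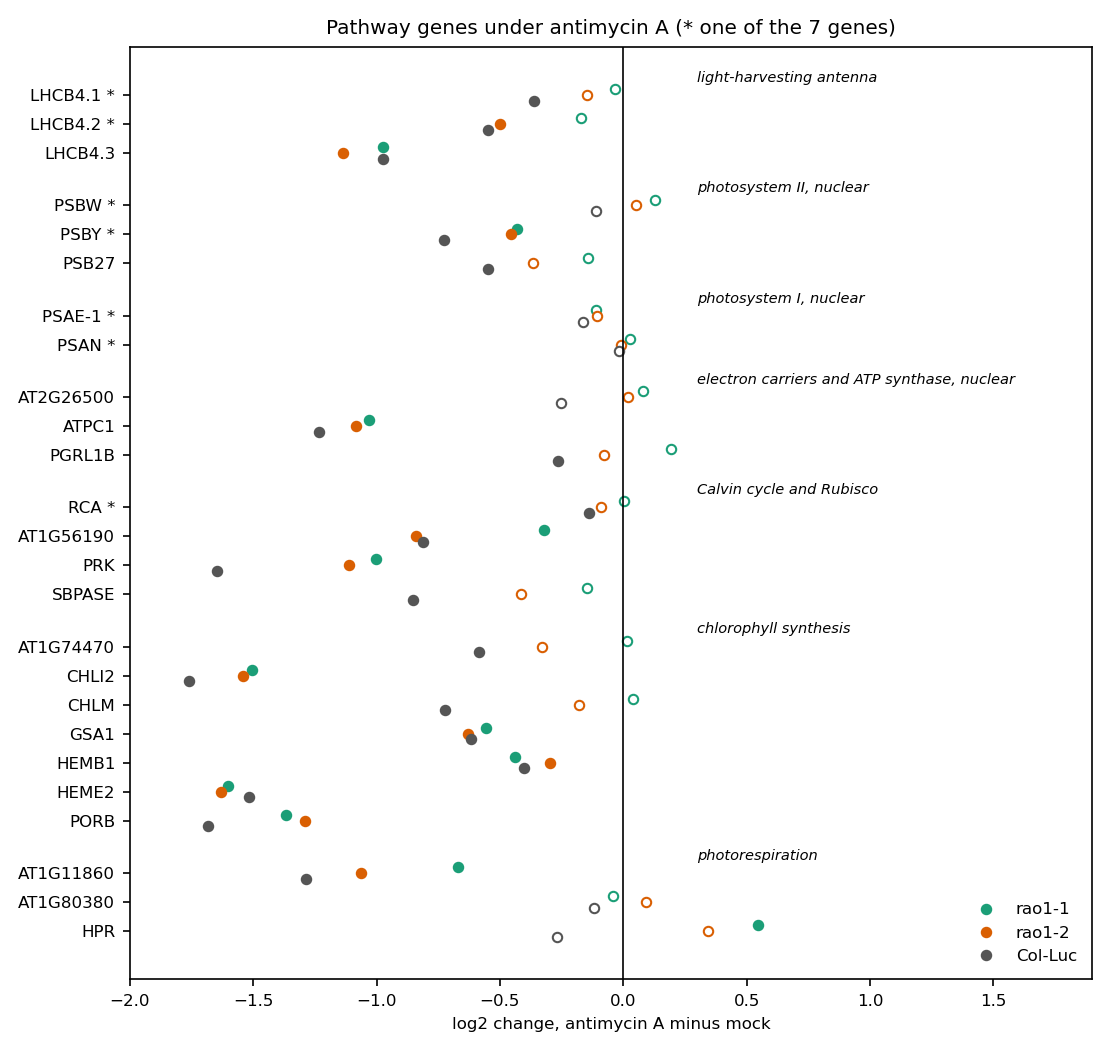
Change under antimycin A (log2, x axis) of the 25 genes of photosynthesis and linked pathways named here, in rao1-1, rao1-2 and Col-Luc. Genes are grouped by list, with the 7 described genes marked with an asterisk. Filled points passed at an adjusted p under 0.05. The chlorophyll synthesis genes CHLI2, PORB and HEME2 lie farthest left with PRK, at -1.76, -1.68, -1.52 and -1.65 in Col-Luc, while PSAN and PSBW lie near 0.

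Between genotypes, 1 of the 18 was called for rao1-1 against Col-Luc under antimycin A (AT1G56190, higher by 0.34 ± 0.07, limma, adjusted p = 0.0124) and 1 under mock (PGRL1B, lower, -0.38 ± 0.08, limma, adjusted p = 0.0184). The AT1G56190 call was lost with the arrays centred on either kind of control, with only the groups compared, and without Col-Luc antimycin A replicate 3. The PGRL1B call was lost with the arrays centred on the hybridisation controls, with only the groups compared, and without rao1-1 mock replicate 2 or 3 or Col-Luc mock replicate 1 or 2. Under mock 3 of the 18 were called lower on the poly(A) controls, and 3 without Col-Luc mock replicate 3. For rao1-2 the counts were 0 under both treatments (limma). At an unadjusted p under 0.05 they were 1 under antimycin A and 4 under mock, beside 3276 and 3060 of all 22746 probe sets.

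Across the 18 arrays 5 of the 7 genes moved together. For LHCB4.1, LHCB4.2, PSBY, PSAE-1 and RCA the 10 pairwise Pearson correlations of log2 intensities lay between 0.76 and 0.88. PSAN correlated with those 5 at 0.35 to 0.59, and PSBW with the other 6 at -0.03 to 0.40. The arrays of a group share treatment and genotype and every array shares its own scaling, so these are descriptions. With group means removed, the 10 correlations spanned 0.43 to 0.90, those of PSAN 0.57 to 0.80 and those of PSBW 0.15 to 0.53.

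Among 7617 probe sets that name 1 gene and stand above the background limit, those most like the mean of the 7 over the 18 arrays were NdhN (r = 0.950), NdhL (r = 0.948), AT1G64680 (r = 0.945), AT5G35170 (r = 0.945) and AT1G74470 (r = 0.943). NdhN and NdhL encode subunits of the chloroplast NDH complex, and AT1G74470 is among the 18 pathway genes above. Most like PSBY was THIC (r = 0.982), which makes the pyrimidine part of thiamine. HCF101, a chloroplast iron-sulphur cluster carrier, was most like LHCB4.1 (r = 0.924), AT4G16410 most like LHCB4.2 (r = 0.952), AT1G70820 most like PSAE-1 (r = 0.928) and AT1G48450 most like RCA (r = 0.909). For PSAN and PSBW the highest values were lower, 0.801 with AT2G35450 and 0.778 with AT5G17670. All were picked as the highest among 7617 correlations over arrays that share treatment, genotype and scaling, so they too are descriptions.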

How the data were processed

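Transcripts of whole green tissue were hybridised to 1-colour ATH1 arrays, 3 per group in 6 groups. The deposited intensities are linear and already normalized by the authors: per the submitters' processing notes RMA and GCRMA were used, with no version stated and no word on which gave these values. Either one makes array distributions alike, and a change shared by most transcripts would be lost. No build, slide or scan batch is named. The log2 of each intensity, with no pseudocount, went into limma 3.58.1 (R 4.3.3), a mean for each group across the 18 arrays with 12 residual degrees of freedom, and eBayes, two-sided, with Benjamini-Hochberg adjustment over 22746 probe sets (22810 less 64 controls), called at an adjusted p under 0.05. Intervals are at 95%. Of the probe sets, 13513 name 1 gene, 503 several, and 8730 are unnamed here; 13436 were matched to RefSeq (TAIR10.1, names only), and the annotation is old. The background limit, the least dense point between the modes of log2 values, was set after the values were seen. The fit was tested on simulated data. Named genes were the 7 by name; up to 4 called genes of each list, by size of change; and the genes most correlated with the 7. Genes beyond this rule are named where a count is small or a contrast across genotypes is given. The 7 genes, the lists, tests and alternatives were chosen with earlier results of these data known. Alternatives were other scalings, a pseudocount of 16, a filter on dim probe sets, other variance models, a replicate block, and leaving out each array. Sequences and coordinates are not used here.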

Additional observations from a re-analysis of the deposited data

Results flagged for a closer look

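AT1G56190, on the Calvin cycle list, differed in its response to antimycin A between rao1-1 and Col-Luc, by 0.49 ± 0.09 on the log2 scale (interaction, limma, adjusted p = 0.0416). Its intensity was 925, 931 and 1038 on the antimycin A arrays, against 1255, 1202 and 1161 on the mock arrays of rao1-1. In rao1-2 it was 726, 704 and 768 under antimycin A, against 1305, 1274 and 1361 under mock. In Col-Luc it was 761, 799 and 721 under antimycin A, against 1314, 1265 and 1432 under mock. All antimycin A arrays lay below all mock arrays in each genotype, and the change was -0.32 in rao1-1, -0.84 in rao1-2 and -0.81 in Col-Luc. The call was lost under 6 of 9 other settings and on leaving out 10 of 12 arrays, with adjusted p-values (limma) from 0.025 to 0.278 over all of them and an estimate above 0 in each. The hybridisation controls moved by 0.25 with the same contrast, and the estimate was 0.24 with the arrays centred on them. It was 1 of 84 probe sets called in that contrast, and the cause was not tested.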

How the results depend on the processing

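Replicates of 3 arrays and the unknown scaling of the deposited values are the main limits. Calls among the 7 genes were lower under every setting. In rao1-1 the count of 1 became 2 with quantile normalization (PSAE-1, -0.19, limma, adjusted p = 0.00649), 3 centred on poly(A) controls, 5 centred on hybridisation controls, and 0 with only the groups compared in the fit, where PSBY had an adjusted p (limma) of 0.0502. In rao1-2 the count of 2 became 7 on poly(A) and 5 on hybridisation controls. In Col-Luc the count of 4 became 7 on poly(A) controls and 2 with only the groups compared (LHCB4.1, adjusted p = 0.0738, and RCA, 0.117, limma). Changes that turned and passed were RCA in rao1-1 on hybridisation controls (-0.26, against 0.00) and, on poly(A) controls in rao1-2, PSBW (-0.26, against 0.05) and AT2G26500 (-0.29, against 0.02). RCA in Col-Luc was also lost with quantile normalization, centring on the hybridisation controls or on the median of probe sets above the limit, and the filter on dim probe sets. These scalings shifted the median of all probe sets under antimycin A on poly(A) controls by -0.22 in rao1-1, -0.31 in rao1-2 and -0.25 in Col-Luc, and on hybridisation controls by -0.26, -0.21 and -0.01. The counts of all probe sets called lower on each kind of control stand beside those of the 7 genes above.

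Leaving out each array gave 1 call in rao1-1, 2 in rao1-2 and 3 to 5 in Col-Luc, where PSAE-1 passed without antimycin A replicate 1 or mock replicate 3. The 6 calls of PSBY, LHCB4.2 and LHCB4.1 kept adjusted p-values (limma) up to 0.0461. Comparisons between genotypes and differences in response gave 0 calls under every setting. Of 1218 recomputed changes 90 had the other sign, 28 of them on hybridisation controls, and 2 of the 90 passed.

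Over all probe sets, the 918 calls of rao1-1 against Col-Luc under mock became 4480 on hybridisation controls (92.3% higher, against 45.6%, and 33.7% on poly(A) controls). With only the groups compared, the 743 and 560 calls of rao1-1 and rao1-2 under antimycin A became 58 and 109, the 312 of rao1-2 under mock 14, and the 45 of its difference in response 26; the 743 became 478 on poly(A) controls. On poly(A) controls the share of antimycin A calls that were higher was 24.4%, 18.9% and 20.6% in rao1-1, rao1-2 and Col-Luc, and on hybridisation controls 18.4% in rao1-1 and 22.0% in rao1-2, against 38.9%, 36.4% and 33.4% as deposited. For differences in response it was 13.9%, 17.0% and 14.2% on hybridisation controls for rao1-1, rao1-2 and both, against 57.1%, 42.2% and 55.6%; for rao1-2 under mock it was 77.3% there, against 46.2%. Under antimycin A it was 42.9% and 39.7% on poly(A) and 38.4% and 37.1% on hybridisation controls for rao1-1 and rao1-2, against 54.2% and 54.5%. Leaving out 1 array at a time, these counts ran over 383 to 964 (lowest without rao1-1 mock replicate 2) and 181 to 1442 (lowest without rao1-2 mock replicate 2, highest without rao1-2 mock replicate 1) for rao1-1 and rao1-2 under mock, 447 to 823 (lowest without rao1-1 antimycin A replicate 1) and 265 to 579 (lowest without Col-Luc antimycin A replicate 3) under antimycin A, and 40 to 144 (lowest without rao1-1 mock replicate 2), 27 to 324 (highest without rao1-2 mock replicate 1) and 56 to 298 (highest without rao1-2 mock replicate 1) for the 84, 45 and 90 differences in response of rao1-1, rao1-2 and both.

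With a replicate block Col-Luc had 5 calls (PSAE-1, limma, adjusted p = 0.0189), rao1-1 1 and rao1-2 2. Same-numbered arrays of different groups correlated at -0.34 to 0.47, over 0.1 in 27 of 45 pairs (median 0.15), against 20 of 90 pairs with different numbers (median -0.09), and 13 of 18 arrays were closest to their own number. That is a hint of pairing from the data and not from the design. A shared batch need not bring every pair over 0.1, so these values cannot settle whether the numbers mark pairs. The main fit did not use them as pairs, and the replicate block is given as an alternative.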
